A study of Homo sapiens with 24 samples.

Results

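The Ctrl and wt lines of U2OS cells, a human osteosarcoma line, were compared over 16 libraries, 8 per line, of the 24 in the series, with time as a blocking factor. The assay was 4sU-seq: 4-thiouridine, given at 200 µM for the last 1 h, is built into nascent transcripts, which are then purified and sequenced. The wt line carried an unmutated HaloTag fusion of the glucocorticoid receptor, GR, which is the product of NR3C1 (HaloTag holds fluorescent ligands), and the Ctrl line carried the same fusion with the substitution R470A, which the study made to weaken DNA binding while keeping RNA binding. Each line was treated with the synthetic hormone dexamethasone at 100 nM for 1, 2 or 3 h. The 0 h samples had 0.01% ethanol, and each line and time had 2 libraries. The third line, SoF (K492A), had 8 libraries and its levels are given beside those of the Ctrl and wt lines without a test. All constructs were driven by a CMV promoter, integrated with the PiggyBac transposon under puromycin selection, and sorted as a pool on the fluorescence of the tagged receptor. Each line was 1 such pool, so the receptor mutation and the history of the pool cannot be told apart.

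GR is a nuclear receptor that waits in the cytoplasm, enters the nucleus when bound by a glucocorticoid, and binds DNA as a dimer at palindromic response elements to raise or lower transcription of nearby genes. Classical induced targets include PDK4, a brake on pyruvate oxidation, and TSC22D3 (GILZ), an anti-inflammatory leucine zipper protein. In a cultured tumour line such as U2OS, separately derived pools can also differ in genes that do not answer the hormone, and tumour lines often carry unequal copy numbers of chromosome arms.

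Total exon counts of the 16 libraries ranged from 8106036 to 15820806, and the smallest library was replicate 2 of Ctrl at 0 h. Within a group, the chi-square between the 2 libraries divided by its degrees of freedom was 5.64 to 21.2, where 1 would mean Poisson noise only. The libraries of a group thus differed by more than depth alone gives. This value sums over genes, so it does not show what limited the precision at low counts. Nothing in the labels says that the 2 libraries came from separate cultures, so the p-values measure the spread between these libraries, which may be technical. Mesenchymal and osteoblast markers were expressed. VIM ranged from 502.9 to 901.6 CPM, COL1A1 from 323.9 to 995.0 CPM and RUNX2, the osteoblast lineage factor, from 50.3 to 156.5 CPM over the 16 libraries. TERT had 4 counts in all wt and 3 in all Ctrl libraries, and CDKN2A had 1 and 0. Of the blood markers, CD3E and HBB had no count in any library of either line, while PTPRC reached 1.14 CPM and CD68 3.41 CPM in single libraries, with summed counts of 88 in wt and 71 in Ctrl for PTPRC and of 203 and 217 for CD68. The epithelial keratins KRT8 and KRT18 ranged from 113.1 to 225.9 CPM and from 164.2 to 388.2 CPM over both lines. Other epithelial markers were low. EPCAM reached 3.5 CPM and CDH1 7.94 CPM in single libraries. ESRP1 had 14 counts in all wt and 12 in all Ctrl libraries, and KRT19 had 1 and 3.

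NR3C1 itself was higher in Ctrl at every time. The 8 wt libraries ranged from 328.1 to 1567 CPM (median 621.3) and the 8 Ctrl libraries from 1610 to 7495 CPM (median 2808). No wt library reached the lowest Ctrl library. The log2 difference was 2.18 (SE 0.11, adjusted p = 3.4e-11, edgeR quasi-likelihood F test), and within 0, 1, 2 and 3 h it was 2.26, 2.19, 2.01 and 2.28. SoF ranged from 1119 to 6305 CPM. The exon counts cannot tell the introduced coding sequence from the cell's own gene. The pools had been sorted on tagged receptor protein, which these RNA counts do not measure. The study then picked the sorted fractions whose nuclear GR, by immunofluorescence, matched between lines after dexamethasone. It also reported nuclear GR as relatively constant over 3 h of dexamethasone for each construct. The difference in NR3C1 counts is therefore one of RNA and not of measured receptor protein. None of the 3 tested neighbours of NR3C1 within 250 kb was called.

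Of 23146 genes tested, 3463 (15%) differed between the lines with time adjusted, at an adjusted p under 0.05. Of these, 1597 (6.9%) were higher and 1866 (8.06%) lower in Ctrl, and 211 (0.912%) and 179 (0.773%) differed at least 2-fold. At every time, 1263 genes (5.46%) had separate lines, called or not. A stricter set followed the line, meaning that the gene was called and that at each of the 4 times both Ctrl libraries lay above, or both below, both wt libraries in log2 CPM. It held 1192 genes (5.15%), of which 546 (2.36%) were higher and 646 (2.79%) lower in Ctrl. Most of these differences were small. The median absolute log2 difference was 0.50 among the 546 and 0.52 among the 646, and 84 (0.363%) and 94 (0.406%) of them reached 2-fold. The replicates did not carry the calls equally. Without the replicate 1 libraries 588 genes were called, and without the replicate 2 libraries 3201.

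**Figure D1:**
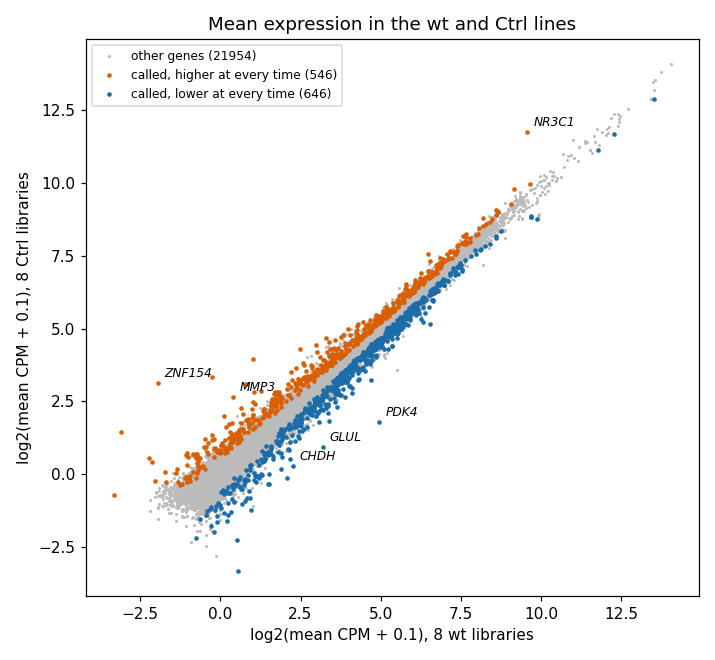
Each point is 1 tested gene, with the log2 of its mean CPM plus 0.1 over the 8 wt libraries on the x axis and over the 8 Ctrl libraries on the y axis. Orange points are the 546 genes called higher in Ctrl and separated at every time, blue points the 646 called lower, and grey points the rest. NR3C1 and ZNF154 lie far above the diagonal and PDK4, GLUL and CHDH far below it.

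ZNF154, a KRAB zinc finger gene of chromosome 19, had the largest log2 difference among genes following the line upward at a mean of at least 2 CPM. It ranged from 0.00 to 0.28 CPM in wt (median 0.16), against 7.31 to 9.40 CPM in Ctrl (median 8.76). SoF stayed between 0.00 and 0.40 CPM, so only Ctrl libraries of the 24 held more than 1 CPM. The fitted log2 difference was 5.66 (SE 0.21, adjusted p = 1.6e-13, edgeR). It was 5.76, 6.09, 5.94 and 5.15 at 0 to 3 h. Of 30 tested neighbours within 250 kb, 1 was called in the same direction and 0 in the other. Because the promoter of ZNF154 and that of PDK4, which had the largest difference downward under the same limit, head the 2 lists, the 250 bases before their RefSeq start sites (GRCh38.p14) are shown 5′ to 3′ with CG dinucleotides in capitals. The ZNF154 window is chr19:57709205-57709454 on the minus strand and the PDK4 window is chr7:95596517-95596766 on the minus strand.
ZNF154: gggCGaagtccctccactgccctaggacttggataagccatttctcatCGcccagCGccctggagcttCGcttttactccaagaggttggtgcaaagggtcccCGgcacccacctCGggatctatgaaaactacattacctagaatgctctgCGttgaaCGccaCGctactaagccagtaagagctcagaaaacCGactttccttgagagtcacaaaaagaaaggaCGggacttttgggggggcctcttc
PDK4: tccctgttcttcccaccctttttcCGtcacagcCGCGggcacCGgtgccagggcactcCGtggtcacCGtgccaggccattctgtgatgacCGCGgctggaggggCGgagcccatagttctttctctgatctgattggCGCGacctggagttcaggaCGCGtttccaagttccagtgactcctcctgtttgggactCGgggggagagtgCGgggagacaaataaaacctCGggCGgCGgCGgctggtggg
The ZNF154 window held 11 CG dinucleotides, a number reached by 50.3% of 35114 promoter windows, and the PDK4 window held 19, reached by 34.6%. The half-site AGAACA was searched on both strands. It occurred 1 time in the PDK4 window and 0 times in that of ZNF154, and 12.4% of all windows held it. A match to these letters is a description of the window and not a binding site.

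Further protein-coding genes with large differences were higher in Ctrl at every time. MMP3, stromelysin 1, ranged from 0.26 to 3.19 CPM in wt (median 0.58), against 2.94 to 17.4 CPM in Ctrl (median 3.65). The highest wt library, at 1 h, lay above the lowest Ctrl library, at 3 h, while the lines were apart within each time. The log2 difference was 2.31 (SE 0.30, adjusted p = 3.7e-05, edgeR). MMP9, gelatinase B, had a median of 2.13 CPM in wt and 6.56 CPM in Ctrl, with a log2 difference of 1.57 (SE 0.21). KIF1A, a kinesin of axonal vesicle transport, ranged from 3.21 to 11.3 CPM in wt, against 11.9 to 29.0 CPM in Ctrl, which left no overlap between the lines. Its log2 difference was 1.87 (SE 0.12). NLRP1, an inflammasome sensor, lay between 6.90 and 13.7 CPM in wt and between 20.04 and 31.3 CPM in Ctrl (log2 difference 1.38, SE 0.11), again without overlap. SoF lay at 5.41 to 12 CPM for NLRP1, within or below the wt range. TRIML2 rose by 1.86 on the log2 scale (SE 0.21), CYP4F11, a fatty acid hydroxylase, by 1.41 (SE 0.14) and FHAD1 by 1.53 (SE 0.17).

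Several of the largest rises were in long noncoding RNAs. LINC02972 had a median of 0.64 CPM in wt and 9.88 CPM in Ctrl (log2 difference 3.76, SE 0.20). TAGAP-AS1 had medians of 1.77 and 14.3 CPM (log2 difference 2.97, SE 0.17), with SoF at 1.82 CPM. It overlaps RSPH3, TAGAP and ENSG00000288845, whose reads may be hard to separate from its own. ENSG00000244675, which overlaps ATP13A3, had medians of 1.53 and 8.13 CPM (log2 difference 2.35, SE 0.13), with SoF at 1.74 CPM. EMSLR and PRKAR1B-AS1 rose by 1.95 (SE 0.23) and 1.65 (SE 0.19) on the log2 scale.

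**Figure D2:**
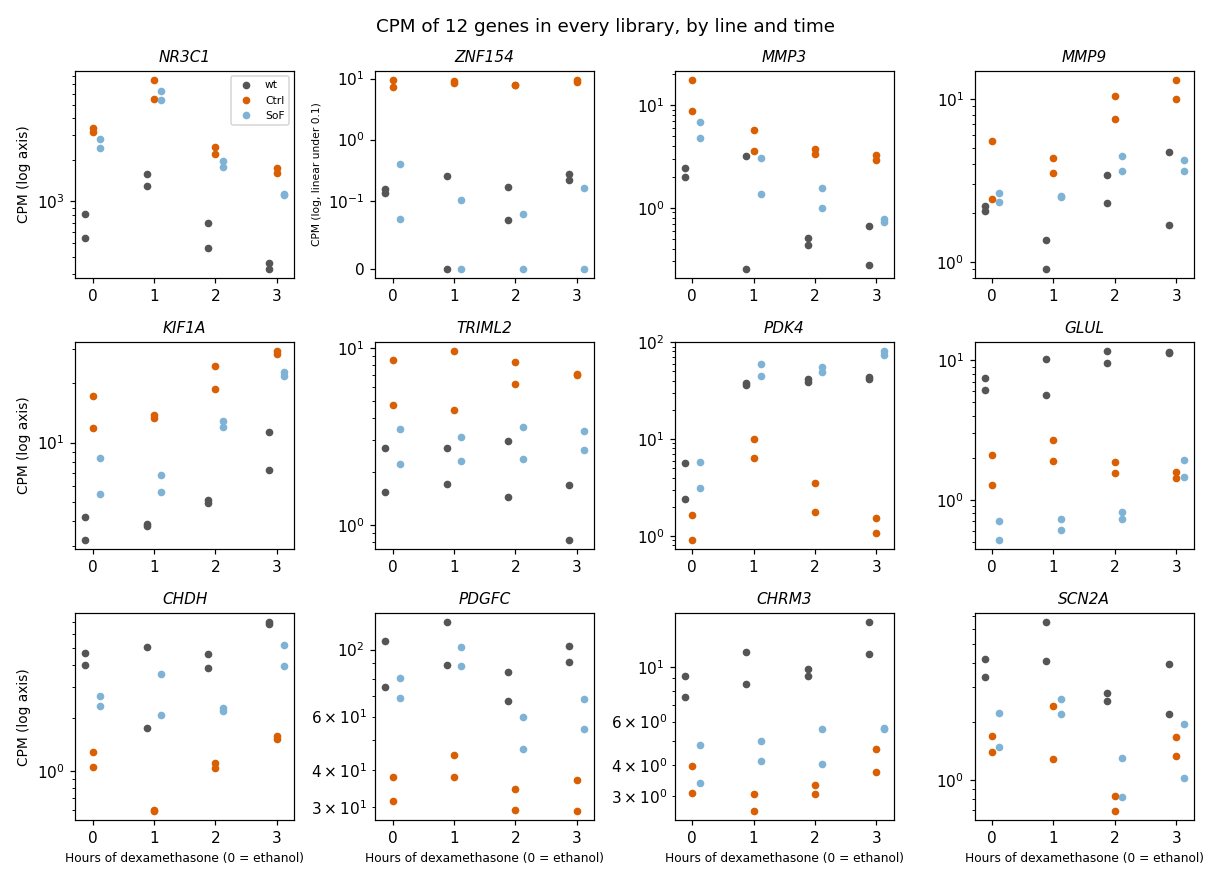
Each panel gives the CPM of 1 gene on a log axis (linear below 0.1 CPM for ZNF154) against hours of dexamethasone, with 1 point per library for wt (grey), Ctrl (orange) and SoF (light blue). NR3C1, ZNF154, MMP3, MMP9, KIF1A and TRIML2 lie higher in Ctrl than in wt at each time, and PDK4, GLUL, CHDH, PDGFC, CHRM3 and SCN2A lie lower.

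PDK4 had the largest log2 difference among genes following the line downward at a mean of at least 2 CPM. It ranged from 2.39 to 43.7 CPM in wt (median 38.1), against 0.91 to 10.1 CPM in Ctrl (median 1.70). In wt the 0 h libraries were low and the 1 to 3 h libraries high, whereas in Ctrl the 1 h libraries were the highest. The log2 difference over all times was −3.24 (SE 0.31, adjusted p = 7.4e-07, edgeR), and it was −1.72, −2.15, −3.88 and −5.03 at 0, 1, 2 and 3 h. SoF had a median of 52.1 CPM, above wt.

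The other genes with large differences downward were of varied kinds. GLUL, glutamine synthetase, ranged from 5.62 to 11.6 CPM in wt, against 1.27 to 2.67 CPM in Ctrl, without overlap (log2 difference −2.35, SE 0.17). SoF was lower still, with a median of 0.73 CPM. CHDH, choline dehydrogenase of mitochondria, lies on chromosome 3 and had medians of 4.64 and 1.08 CPM (log2 difference −2.09, SE 0.19). PDGFC, a platelet-derived growth factor, ranged from 67.5 to 123 CPM in wt, against 29.2 to 44.9 CPM in Ctrl (log2 difference −1.39, SE 0.10), again without overlap. CHRM3, a muscarinic acetylcholine receptor, ranged from 7.56 to 15.1 CPM and from 2.61 to 4.66 CPM (log2 difference −1.57, SE 0.12). ADD2, a subunit of the membrane skeleton protein adducin, fell by 1.32 (SE 0.11). The sodium channel SCN2A fell by 1.38 on the log2 scale (SE 0.19). KBTBD8 and IHO1, also on chromosome 3, fell by 1.35 and 1.34. SoF had 13.3 and 9.50 CPM for them, above the wt medians of 11.8 and 7.57. The lncRNAs ENSG00000238178, ENSG00000267506, LINC02910 and ENSG00000289426 fell by 2.36, 1.80, 1.72 and 1.501.

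A gene could follow the line alone or with its neighbours. IHO1 had 26 tested neighbours within 250 kb and 19 of them were called lower as well. CHDH, on the same chromosome, had 7, of which 3 were called lower and 0 higher. GLUL had 3 such neighbours and PDGFC 1, and none was called in its direction.

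The difference between the lines was also tested for a change with time. No gene passed the interaction test of line and time in edgeR (adjusted p under 0.05), with 368 genes at an unadjusted p under 0.05. DESeq2's likelihood ratio test called 3, PDK4, TSC22D3 and TXNIP, which also had the 3 smallest interaction p in edgeR. Their edgeR adjusted p were 0.224 for PDK4 and TSC22D3 and 1.0 for TXNIP. TSC22D3 differed by 0.36, −0.41, −1.45 and −1.58 log2 at 0 to 3 h. TXNIP, a glucose-responsive redox protein, differed by 0.35, 0.42, −0.57 and −1.54 and was not called over all times. Tested within single times, 75 (0.324%), 34 (0.147%), 98 (0.423%) and 89 (0.385%) genes were called at 0, 1, 2 and 3 h. At each of the 4 times the same 15 genes (0.0648%) were called. NLRP2, ENSG00000288845 and OR4P4 are named from these 15 after their values were seen. NLRP2, of the same family as NLRP1, averaged 14.7 CPM in wt and 6.20 CPM in Ctrl (log2 difference −1.25). ENSG00000288845, which overlaps TAGAP-AS1, averaged 0.018 CPM in wt and 2.62 CPM in Ctrl. OR4P4, an olfactory receptor gene, ranged from 0.59 to 2.47 CPM in wt and was at 0 in all Ctrl and SoF libraries.

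Glucocorticoid target genes were lower in Ctrl where they differed. Of 26 tested members of a list of induced targets, 0 were called higher and 8 lower (30.8%, against 15% of all genes). These were PDK4, TSC22D3, IP6K3, ETNK2, MT1X, TIPARP, CEBPD and SGK1. Of these, only PDK4 was separated at every time. Without the replicate 2 libraries 2 members were called higher and 4 lower. The list's median log2 difference was 0.16 at 0 h, −0.02 at 1 h, −0.46 at 2 h and −0.62 at 3 h, while the median of all tested genes stayed between −0.01 and 0.00. SGK1, a serum and glucocorticoid-induced kinase, averaged 391.2 ± 93.2 CPM in wt and 293.5 ± 59.5 CPM in Ctrl (SD, n = 8 each). Its log2 difference was 0.14 at 0 h and −0.85 at 3 h. Both metallothioneins called, MT1E and MT1X, were at −0.06 and 0.09 log2 at 0 h and at −0.98 and −1.15 at 3 h.

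Extracellular matrix genes moved in both directions. Of 30 matrix glycoproteins tested, 11 were lower and 3 higher (46.7% called, against 15% of all genes). LUM, the collagen-binding proteoglycan lumican, fell by 0.87 (SE 0.15), and the basement membrane genes LAMA2, LAMA3 and NID1 by 0.80, 0.80 and 0.78. LAMB3, TNC and LOXL1 made up the 3 that rose. Of 23 matrix proteases and inhibitors, 6 were higher (MMP3, MMP9, MMP13, PLAUR, SERPINE2 and TIMP1) and 1, MMP15, was lower (30.4% called). Of 30 growth factors, 7 were higher and 6 lower (43.3% called). IGF2 rose by 0.84 (SE 0.12), and IGFBP4 rose by 1.504 from a mean under 1 CPM in wt. Without the replicate 1 libraries the median log2 difference was −0.23 for the glycoproteins, −0.04 for the proteases and −0.10 for the growth factors. Without the replicate 2 libraries these medians were −0.21, 0.08 and 0.07.

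In the TGF-beta and BMP list the share called was near that of all genes. Of 33 tested members, 5 were lower and 1, SMAD3, was higher (18.2%, against 15% of all genes), and without the replicate 1 libraries 1 was lower. ID3 averaged 289.6 ± 90.4 CPM in wt and 144.4 ± 69.2 CPM in Ctrl (SD, n = 8 each), a log2 difference of −0.998 (SE 0.22). ID4, ID1 and ID2, which like ID3 block DNA binding by partner helix-loop-helix factors, fell by 0.94, 0.83 and 0.63. LTBP1, which holds latent TGF-beta in the matrix, fell by 0.74 (SE 0.08). Of 31 Wnt pathway genes, 7 were lower and 2 higher (29% called), with RNF43 at −1.11, WNT5A at −0.47, WNT7B at 0.76 and WNT2B at 0.47.

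The ATF4 and NRF2 lists held more genes called higher than lower. Of 25 genes of the ATF4 amino acid response, 8 were higher, among them ASNS, asparagine synthetase (0.67, SE 0.13), the stanniocalcin STC2 (0.66), the cystine transporter SLC7A11 (0.44) and PSAT1 of serine synthesis (0.40). The 1 lower member was ATF4 itself (−0.25, SE 0.08), which is named after its value was seen. Of 25 NRF2 antioxidant genes, 8 were higher, among them TXNRD1 (0.51) and SRXN1 (0.43), and HMOX1 was lower (−0.60, SE 0.12). SLC7A11 is in both lists, and 36% of each list was called, against 15% of all genes. Other stress and metabolic lists did not share this direction. Of 22 heat shock genes 0 were higher and 2 lower (9.09% called). For 31 cholesterol and fatty acid synthesis genes the numbers were 0 and 1 (3.23%). For 19 aldo-keto and aldehyde metabolism genes they were 1 and 4 (26.3%), and for 35 glycolysis and hypoxia genes 3 and 2 (14.3%). Without the replicate 1 libraries, 1 ATF4 list member and 0 NRF2 members were called higher, against 2.49% of all genes called in either direction.

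Cell cycle, histone, p53 and mitochondrial genes leaned lower. Over all tested genes, 8.06% were called lower and 15% in either direction. Of 51 replication-dependent histones, 25 were lower and 1 higher (51% called), with a median log2 difference of −0.36. H4C3 averaged 5.997 ± 1.67 CPM in wt and 2.80 ± 0.44 CPM in Ctrl (SD, n = 8 each). Histone genes are near copies of each other, so reads may be split unevenly between them. Of 40 mitosis genes, 13 were lower (32.5%) and 0 higher, among them CDC20 (−0.56, SE 0.11), BIRC5 (−0.46), PLK1 (−0.43) and HMMR (−0.41). Of 24 p53 targets, 8 were lower (33.3%) and 0 higher, among them CCNG1 (−0.53, SE 0.08), PHLDA3 (−0.49), RRM2B (−0.46) and FDXR (−0.42). Of 13 mitochondrially encoded genes, 7 were lower (53.8%) and 0 higher, led by MT-ND5 (−0.63, SE 0.09). Without the replicate 1 libraries 1 histone, 1 mitosis gene, 8 p53 targets and 0 mitochondrial genes were called lower. In that fit 2.49% of all genes were called in either direction. Without the replicate 2 libraries the numbers were 42, 21, 4 and 10, and 13.7% of all genes were called in either direction.

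**Figure D3:**
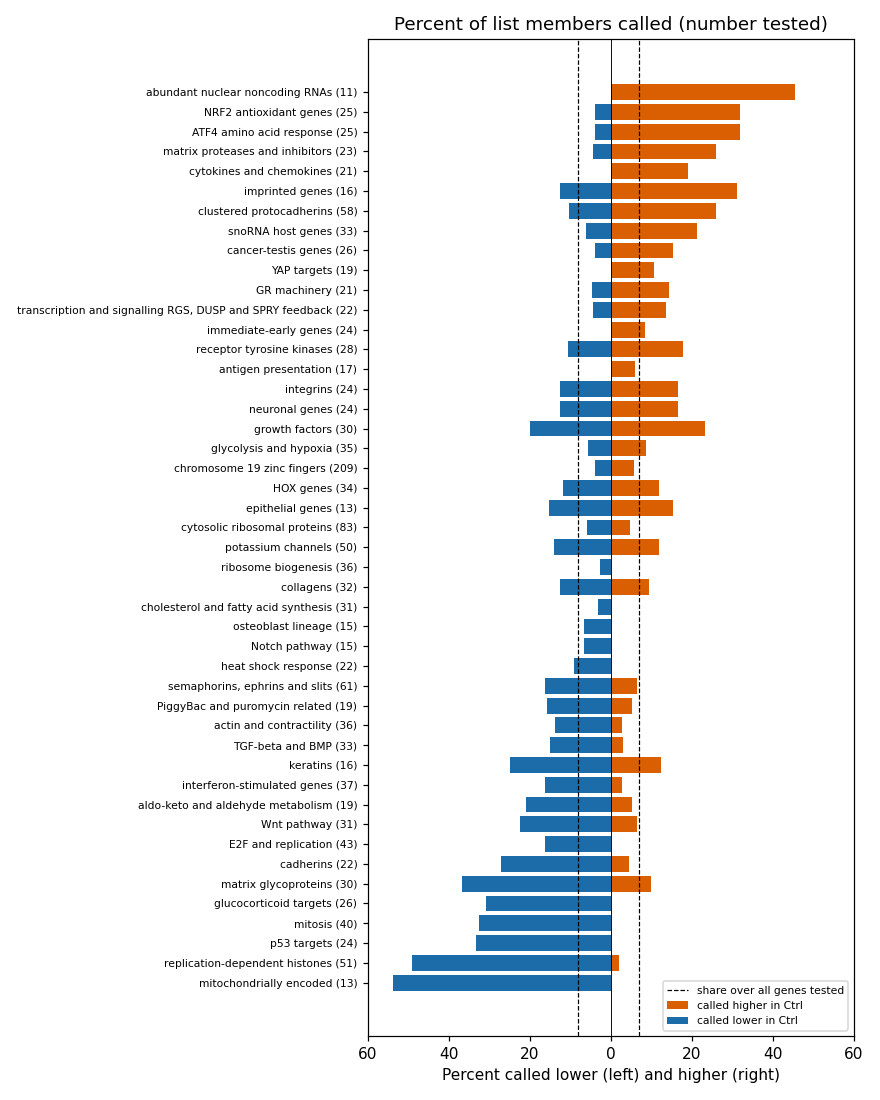
Bars give the percent of the tested members of each list (rows, with the number tested in parentheses, 10 or more) called higher in Ctrl to the right and lower to the left. Dashed lines mark the shares over all tested genes, 6.9% higher and 8.06% lower. The mitochondrially encoded genes and the histones reach furthest to the left.

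The genes that followed the line differed in type. Of 14633 tested protein-coding genes, 301 (2.06%) followed the line upward and 555 (3.79%) downward. Of 5111 lncRNAs, 151 (2.95%) followed it upward and 58 (1.13%) downward. The median log2 difference was −0.03 over the protein-coding genes and 0.05 over the lncRNAs, which were measured at lower levels (median 1.84 against 23.8 CPM). SoF was nearer to wt than to Ctrl in 205 of the 546 genes followed upward (37.5%) and in 280 of the 646 followed downward (43.3%). Among those that differed at least 2-fold, SoF was nearer to wt in 42 of 84 (50%) and in 55 of 94 (58.5%).

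Position along the chromosomes separated the genes as well. On chromosome 3, 290 of 1058 tested protein-coding and lncRNA genes were lower and 27 higher (30.0% called). Chromosome 22 had 91 lower and 25 higher of 507, and chromosome 20 had 112 higher and 21 lower of 528. On each of the other autosomes and X, 10.8% to 16.5% of the genes were called.

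To place these genes, a running median of the log2 difference over 15 neighbouring genes was taken in the replicate 1 libraries. It gave 42 stretches with a size of at least 0.4. The same genes were then measured in the replicate 2 libraries, which had not been used to find them. Windows past the limit numbered 424 of 19405 in replicate 1 and 145 in replicate 2, and 74 were past it with the same sign in both.

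The short arm of chromosome 3 held 7 of the 42 stretches, and all of them were lower in Ctrl. They lay between chr3:3700814-59050084 (hg38), from SUMF1 to CFAP20DC. Over the 463 tested genes of this interval, 238 (51.4%) were called lower and 4 higher, and 419 (90.5%) had a log2 difference below 0. The median was −0.34, or 79.1% of the wt level. It was −0.35 in replicate 1 and −0.33 in replicate 2, and −0.36, −0.33, −0.33 and −0.30 at 0, 1, 2 and 3 h. Over the 589 genes beyond the interval toward the end of the long arm, 51 (8.66%) were called lower and the median was −0.02. The lower level reached past the interval's end, since of the 25 genes at chr3:61561569-70518064 10 (40%) were called lower and 20 lay below 0, with a median of −0.19. Per library, the median over the interval's genes of log2 CPM, taken relative to each gene's mean over the 6 libraries of the same time, ranged from 0.09 to 0.15 for wt, against −0.21 to −0.15 for Ctrl. These did not overlap, and SoF lay at 0.03 to 0.10, reaching into the wt range. The median SoF minus wt difference was −0.07.

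**Figure D4:**
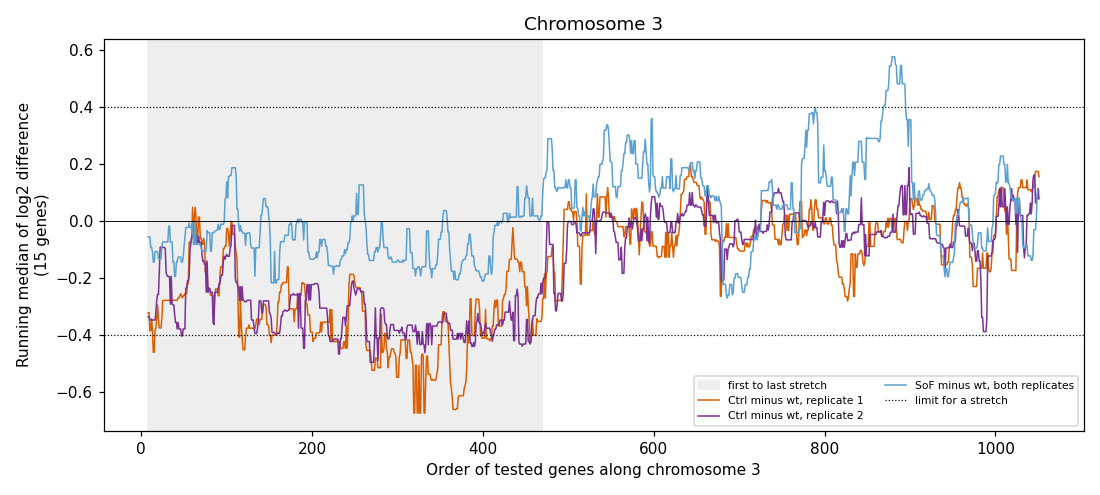
The running median over 15 genes of the log2 difference is drawn against the order of tested genes along chromosome 3, for Ctrl minus wt in replicate 1 (orange) and replicate 2 (purple) and for SoF minus wt (blue). Both Ctrl curves lie mostly below 0 within the grey interval from the first to the last stretch and are mostly near 0 further along, after the first genes beyond it.

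The stretch with the most genes ran from EXOSC7 to NT5DC2 (chr3:44975241-52535054) and held 162 genes. Of these, 102 were called lower and 1 higher. Its median was −0.46 in replicate 1, where it was found, and −0.38 in replicate 2, where 146 of 162 genes (90.1%) had the same sign. Among its genes, TMEM158 fell by 0.97 (SE 0.13) and DOCK3, a guanine nucleotide exchange factor of neurons, by 0.82 (SE 0.11). In the stretch from CTNNB1 to ENSG00000272077, all 34 genes had the same sign in replicate 2. CTNNB1, which encodes beta-catenin, averaged 305.8 ± 33.2 CPM in wt and 228.2 ± 23.0 CPM in Ctrl (SD, n = 8 each). SETMAR in the first stretch fell by 0.63. Members of several lists lay in this interval, among them the ribosomal protein genes RPL15, RPL29, RPSA and RPL14, which were 4 of the 5 cytosolic ribosomal protein genes called lower. WNT5A of the Wnt list and the leading genes CHDH and IHO1 lay in the interval too.

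Stretches that were higher in Ctrl were fewer. On chromosome 20, 28 genes from CSTF1 to NELFCD had a median of 0.40 in replicate 1 and 0.33 in replicate 2, and 15 were called higher. CTCFL, a germ cell paralogue of the insulator protein CTCF, lay there and averaged 0.12 ± 0.10 CPM in wt, 1.37 ± 0.49 CPM in Ctrl (SD, n = 8 each) and 0.12 CPM in SoF. APCDD1L and APCDD1L-DT rose by 1.14 and 0.99. A second stretch of chromosome 20, from FITM2 to SYS1-DBNDD2, had a median of 0.28 in replicate 2. On chromosome 14, 15 genes from MIR4307HG to AP4S1 had a median of 0.54 in replicate 2 and all had the same sign. On chromosome 21, 20 genes that included BACH1 had a median of 0.36 in replicate 2, also all of the same sign. On chromosome 4, 27 genes had a median of 0.35 in replicate 2, and TENM3-AS1 and TENM3 among them rose by 0.70 and 0.41. In each of these 5, the median per library lay higher in both Ctrl than in both wt libraries at each time. SoF's median over its libraries was nearer to Ctrl than to wt in these 5, and nearer to wt in the 7 stretches of chromosome 3.

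**Figure D5:**
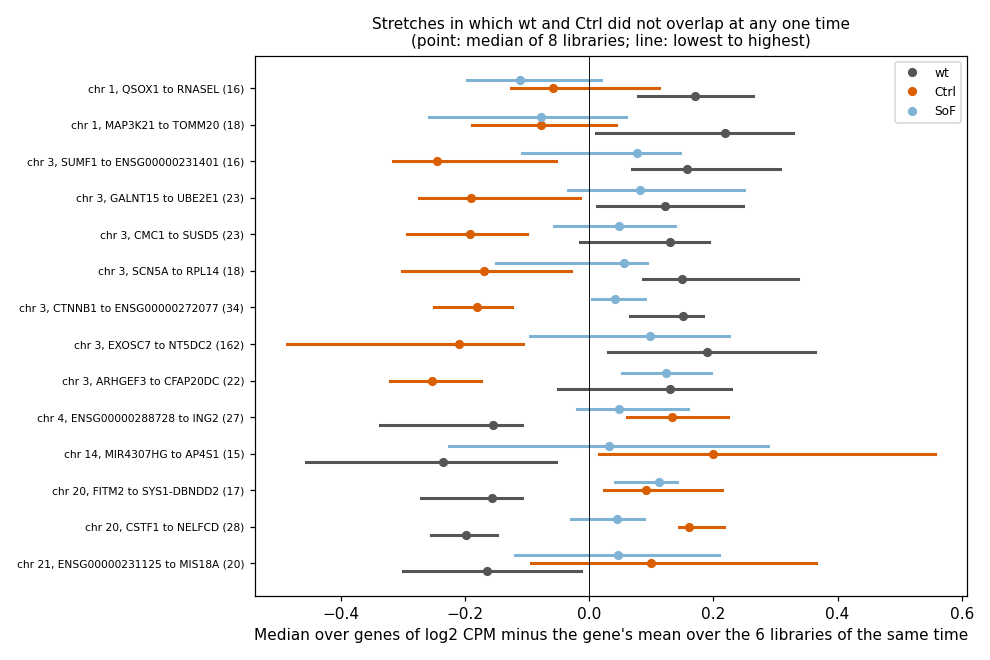
For the stretches in which the wt and Ctrl libraries did not overlap at any one time, points give the median over 8 libraries and lines the lowest to the highest library, on the scale of log2 CPM relative to each gene's mean over the 6 libraries of the same time. The 7 chromosome 3 stretches lie lower in Ctrl with SoF nearer to wt, and on chromosomes 4, 14, 20 and 21 Ctrl lies higher than wt.

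Other stretches found in replicate 1 were not separated at every time. The histone stretch on chromosome 6 from H2BC11 to ZKSCAN4 had a median of −0.41 in replicate 1 and −0.21 in replicate 2, and −0.48, −0.21, −0.39 and −0.25 at 0 to 3 h. In all, 14 of the 42 were separated at every time. After trends with GC content and gene span were removed, 29 stretches were found, and they overlapped 21 of the 42. Across genes the log2 difference had a Pearson r of −0.11 with GC percent and 0.03 with the log10 of gene span (genes are not independent replicates). Fewer copies of a region and less transcription per copy cannot be told apart in these counts.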

How the data were processed

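Per the labels and the study's methods, 4sU-labelled RNA was biotinylated, captured on streptavidin and made into libraries after ribosomal RNA depletion. The authors trimmed reads with Trim Galore 0.6.6, aligned them to hg38 with STAR 2.7.3a, removed duplicates with UMI-tools 1.1.2 and counted exon reads with featureCounts on a Gencode annotation. The deposited values are raw counts per gene and library. That strand was used is stated only in the title of the table, so overlapping genes on opposite strands are uncertain. Symbols and positions came from GENCODE 44 and matched 99.8% of 61533 identifiers.

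Counts of the 16 wt and Ctrl libraries were fitted in edgeR 4.0.16 (R 4.3.3, limma 3.58.1) with TMM normalization, filterByExpr (minimum count 10, minimum total 15) and terms for time and line. The quasi-likelihood F test with Benjamini-Hochberg adjustment over all tested genes gave the p-values. Standard errors are the log2 difference divided by the square root of F. Log2 CPM used a prior count of 2. The script was tested on simulated data. The study ignored time when it compared lines, and that fit, DESeq2 1.42.0 and the others in the closing section were run as alternatives.

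Named genes were NR3C1, the 14 largest differences in each direction among genes following the line at a mean of at least 2 CPM (NR3C1 is one of them), up to 4 called members per list by size, up to 4 called genes per stretch by p, and the 3 smallest interaction p. Other genes given complete a count and were chosen after their values were seen. A few genes that the rule names are not reported here. The comparison, the members and the gene lists were chosen with earlier results of these data known. Library totals were 8106036 to 15820806 counts.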

Additional observations from a re-analysis of the deposited data

Results flagged for a closer look

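In NR3C1 and the other leading genes of both directions, each line's 8 libraries were screened for a single library apart from the rest, as the gap to the nearest library over the whole range in log2 CPM. Of 56 such groups of 8, 3 were over Dixon's 95% critical value, and chance alone flags about 1 in 20. PRKAR1B-AS1 in wt had a ratio of 0.621, with replicate 1 at 1 h at 0.68 CPM and the next lowest at 1.32. CHDH in wt had a ratio of 0.559, with replicate 2 at 1 h at 1.75 CPM and the next lowest at 3.82. ADD2 in Ctrl had a ratio of 0.587, with replicate 2 at 1 h at 10.0 CPM and the next highest at 6.89.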

How the results depend on the processing

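The 3463 called and 1192 following genes came to 859 and 592 with no time term, as the study's design had it. Leaving out a replicate moved them over 588 to 4114 and 571 to 3050. The lowest values were without all replicate 1 libraries, and the 3050 was without all replicate 2 libraries, where 1 library per line and time makes separation easier. Without replicate 2 of wt at 1 h, 1837 genes followed the line. NR3C1 stayed called at 2.07 to 2.32 log2. The interaction gave 0 to 2 genes with a library left out, 3 in DESeq2 and 64 with no filter on low counts. Leaving out a library moved the counts within single times over 7 to 786 (0 h), 9 to 39 (1 h), 22 to 149 (2 h) and 7 to 113 (3 h), with 786 without replicate 1 of Ctrl at 0 h, and DESeq2 gave 189, 230 and 171 at 0, 2 and 3 h. TXNIP, not called, ranged from −0.64 without replicate 1 to 0.034 without replicate 2. Of 111 other genes given, 47 lost their call with no time term, 44 without replicate 1 and 13 without replicate 2, and no leading gene did. TXNIP was the 1 gene of these that turned direction, without replicate 2. The 42 stretches became 16 with 25 genes per window, 116 at a limit of 0.3, 8 at 0.5 and 21 when found in replicate 2. The 21 found in replicate 2 overlapped 11 of the 42. Not among the 11 were the stretches of chromosome 4 and from FITM2 to SYS1-DBNDD2. The chromosome 3 stretches that start at SUMF1, GALNT15 and CMC1 were not among them either. The cause of these changes was not tested.

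Libraries of the same number deviated together at 2 times only (correlations 0.399, −0.229, −0.117 and 0.151 at 0 to 3 h), so the numbers did not pair them at all times. A block for each time and replicate number gave 4013 called and 1189 following genes. The replicate block gave 3594 called and 1191 following genes and 0 with an interaction. DESeq2 gave 3651 and 1179, RLE size factors 3463 and 1176, no low-count filter 3990 and 1107, and all 24 libraries 4089 and 1206. Without the 0 h libraries, chosen after seeing the data, 2501 genes were called. With that alternative 11 histones, 9 mitosis genes, 3 mitochondrial genes and 10 glucocorticoid targets were lower, and 4 ATF4 list members higher.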

Other observations

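Lists of adhesion, ion channel and guidance genes had members called in both directions, beside 15% called over all genes. Of 24 integrins, 4 were higher, led by ITGAM (1.14, SE 0.27) and ITGB3 (0.80, SE 0.13), and 3 were lower, led by ITGB4 (−0.69) and ITGA4 (−0.67), which made 29.2% called. Of 61 semaphorins, ephrins, slits and their receptors, 10 were lower and 4 higher (23%). SEMA3A, a repulsive axon guidance factor, was at −1.13 (SE 0.17) and ROBO4, a slit receptor of endothelium, at 0.85 (SE 0.21). Of 50 potassium channels, 7 were lower and 6 higher (26%), and KCNJ3, an inward rectifier, was at −2.37 (SE 0.41). Of 58 clustered protocadherins, 15 were higher and 6 lower (36.2%), but their transcripts share exons, so the split of reads between them is uncertain.

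Of 34 HOX genes (23.5% called), 4 were lower, among them HOXC13 (−0.77, SE 0.12) and HOXC11 (−0.68), and 4 were higher, among them HOXC5 (0.86, SE 0.17) and HOXB3 (0.53). Of 16 imprinted genes (43.8% called), 5 were higher, among them IGF2 and KCNQ1OT1, the antisense RNA of the KCNQ1 domain (0.69, SE 0.12), and 2 were lower. KCNQ1OT1 is the first gene of a stretch found in replicate 1, chr11:2597308-5505605. Of its 23 genes, 10 were called higher and 0 lower (43.5% called). Of 37 interferon-stimulated genes, 6 were lower, led by IFIT1 (−1.02, SE 0.21), and 1 was higher, which made 18.9% called, near the share over all genes. Of 33 snoRNA host genes, 7 were higher and 2 lower (27.3%), with ZFAS1 at 0.47 (SE 0.07).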
